A study of Arabidopsis thaliana with 12 samples.

Results

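Flavonoids are phenolic compounds that plants build from the phenylpropanoid pathway and a malonyl donor. A first block of enzymes makes dihydroflavonols, from which flavonol synthase branches off to colourless flavonols, and a second block turns the rest into anthocyanins and decorates these red and purple pigments with sugars and acyl groups. In Arabidopsis seedlings the early steps are known to be switched on by flavonol MYB factors and the late steps by a complex of MYB, bHLH and WD40 proteins. The 10 enzyme genes here were chosen with earlier results of these data known and found by locus name among 25665 loci on the array. They are the early genes CHS (AT5G13930), CHI (AT3G55120), F3H (AT3G51240), F3'H (AT5G07990) and FLS1 (AT5G08640), and the late genes DFR (AT5G42800), LDOX (AT4G22880), UGT79B1 (AT5G54060), UGT75C1 (AT4G14090) and 5MAT (AT3G29590). Counts of them beside the shares of all loci are therefore no test of the set.

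Each gene had 1 probe, and all 10 were among the 20267 loci tested. A locus was tested if its probe lay well above background, by the scanner's own flag, on all 4 arrays of at least 1 group. The enzymes met this in wild type and in WIN1SRDX for all 10, and in MYB106SRDX for 7.

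RNA came from whole seedlings of Arabidopsis thaliana, ecotype Columbia-0, aged 3 weeks, in 3 groups of 4 arrays. The groups were wild type, 35S:MYB106SRDX:NOS and 35S:WIN1SRDX:NOS, and no other allele or treatment is named for any of them. In both lines the constitutive 35S promoter drives a transcription factor joined to SRDX, a short peptide that makes an activating factor repress its targets. Of the factors used, MYB106 belongs to the MYB family and acts in trichomes and the epidermis, and WIN1 belongs to the AP2/ERF family and acts in cuticle formation. All plants grew on MS agar with 1% sucrose at 23 °C in 16 h light and 8 h dark, and the labels do not state how many independent transgenic lines were used. Several seedlings from a plate made up a sample, and no separate cultures are named, so the p-values rest on a spread between samples that may be technical.

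Between 59.3% and 64.2% of spots on an array lay well above background and none was saturated. Arrays of a group correlated at 0.972 to 0.991. The MYB106 probe read 2.77 to 4.81 in MYB106SRDX, and at most -1.53 elsewhere. The WIN1 probe read 5.39 to 5.86 in WIN1SRDX and at most -3.36 elsewhere. Each line was thus high in the probe of its own factor. Here and below a level is the log2 signal of a probe minus that of the 75th percentile of its array, so levels of different genes are not set against each other.

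Whole seedlings mix organs, and in such bulk samples fewer cells of a type and less RNA per cell cannot be told apart. The summed signal of 8 root markers was 3.2 to 4.43 in wild type, 2.80 to 7.84 in WIN1SRDX and only 0.0668 to 0.0865 in MYB106SRDX. Of these markers 7 were lower in MYB106SRDX than in wild type, with a median log2 difference of -5.92 (-4.64 with dim genes at their bounds), and COBL9, EXPA18 and RSL4 were above background on no MYB106SRDX array. In WIN1SRDX 5 root markers were higher and 2 lower. The summed signal of 6 epidermal markers was 33.9 to 36.1 in wild type, 2.36 to 22.3 in MYB106SRDX and 1.91 to 14.8 in WIN1SRDX, and 5 of them fell in MYB106SRDX and 4 in WIN1SRDX. Over all tested loci 28.6% were lower and 23.6% higher in MYB106SRDX, and 15.2% and 17.4% in WIN1SRDX. The 8 markers of green leaf tissue summed to 615 to 720, 525 to 685 and 485 to 597 in wild type, MYB106SRDX and WIN1SRDX. Of them 2 were lower in MYB106SRDX, LHCB2.1 at -3.94 and LHCB3 at -1.39, and 1 was lower in WIN1SRDX, RBCS2B at -0.93. RBCS2B had no value on WIN1SRDX replicate 2, so the sum of that array lacks it. The seed storage markers were above background on no wild-type or MYB106SRDX array. CRA1, CRU3 and OLEO1 were so in WIN1SRDX on 1 array each. The part of organ shares in the results below was not tested.

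In MYB106SRDX seedlings most of the pathway was lower than in wild type. All 5 late genes fell, and so did CHS, F3H and FLS1, while CHI and F3'H did not pass the test. None of the 10 rose. This makes 8 of 10 lower at an adjusted p under 0.05 (limma over all tested loci). Of all loci 28.6% were called lower, 23.6% higher and 52.2% in either direction. LDOX, UGT79B1 and 5MAT were not above background on all MYB106SRDX arrays. They were thus tested through the groups where they are high, which favours a fall. Among loci above background on all arrays 5 of 7 enzymes were lower, beside 4430 of 17796 loci lower and 4445 higher. The median log2 difference of the 10 was -4.17 (-3.95 with the dim genes at their bounds), against -0.0546 over all tested loci. For the same 8 genes every MYB106SRDX array lay below every wild-type array, as for 28.3% of all loci, while 24.3% of all loci had the reverse.

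**Figure D1:**
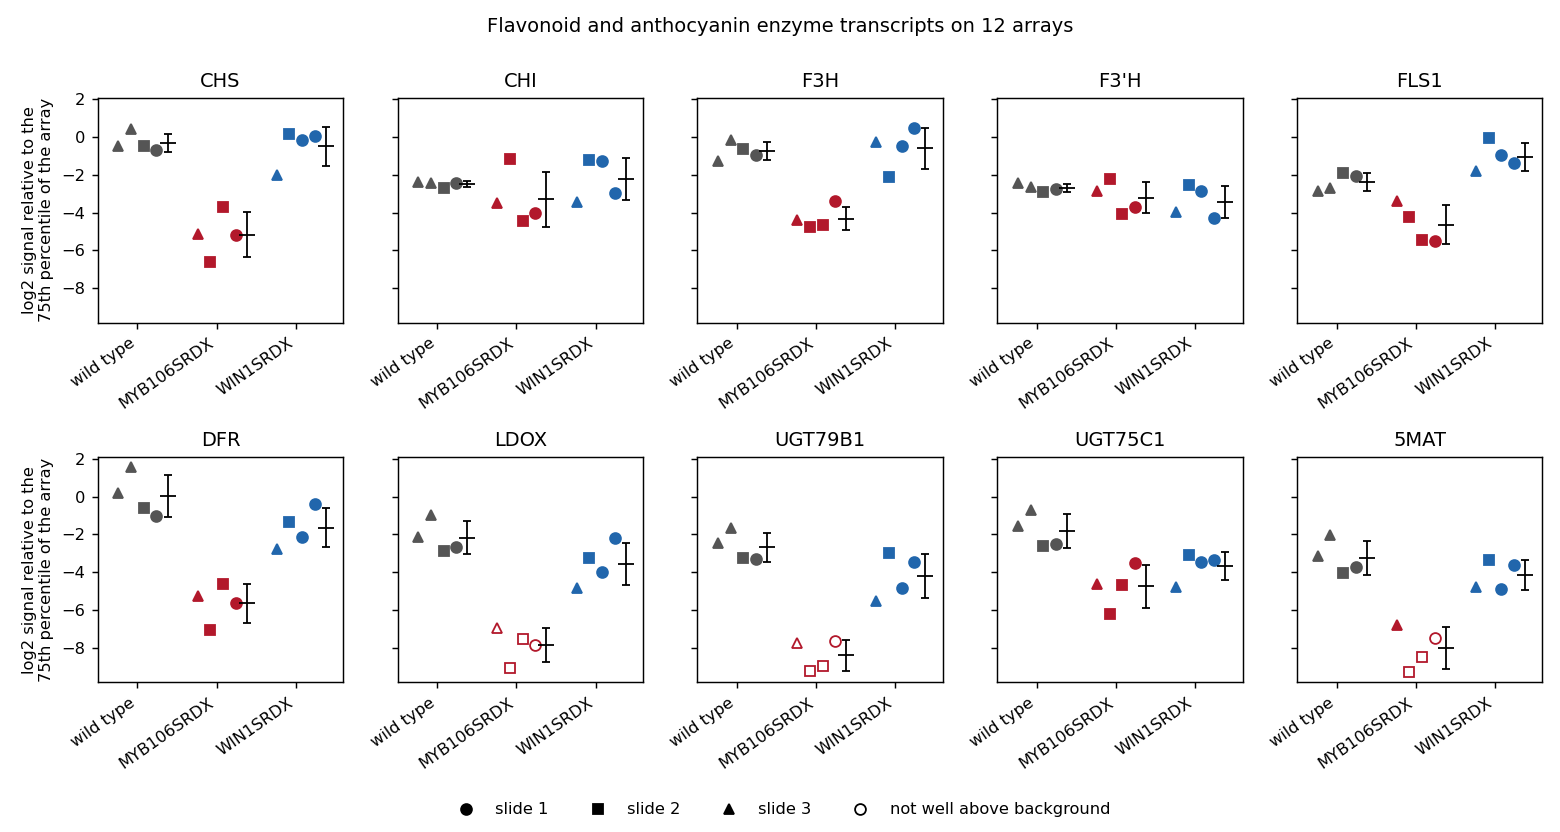
Log2 signal of each enzyme gene over the array's 75th percentile (y axis) on the 12 arrays, by group. Points are arrays, their shape is the slide, open points were not well above background, and bars are group mean ± SD (n = 4). The late genes in the lower row and CHS, F3H and FLS1 lay lower on every MYB106SRDX array than on any wild-type array, while CHI and F3'H overlapped.

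CHS, chalcone synthase, makes the first flavonoid from a phenylpropanoid and malonyl units. Its level was -0.48, 0.41, -0.47 and -0.72 on the wild-type arrays and -5.16, -6.64, -3.68 and -5.18 on those of MYB106SRDX, replicates 1 to 4 in turn here and below. On the WIN1SRDX arrays CHS read -2.04, 0.17, -0.15 and 0.03. Every MYB106SRDX array lay below all others, and WIN1SRDX lay among wild type but for replicate 1. The difference between MYB106SRDX and wild type was -4.85 ± 0.63 (SE) on the log2 scale (adjusted p = 0.000113), and within slides 1, 2 and 3 it was -4.47, -4.69 and -5.13.

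CHI, chalcone isomerase, closes the ring of the product of CHS. Wild type was narrow at -2.39, -2.45, -2.69 and -2.44, whereas the CHI level in MYB106SRDX was -3.51, -1.19, -4.46 and -4.02. In WIN1SRDX it was -3.42, -1.24, -1.28 and -2.96. The arrays of both lines lay on both sides of the wild-type arrays. CHI thus differed by -0.80 ± 0.69 (SE) in MYB106SRDX, with a 95% interval from -2.33 to 0.72 (adjusted p = 0.352). Replicate 2 decided this: without it the difference was -1.51 and passed (adjusted p = 0.0317).

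F3H, flavanone hydroxylase, makes the dihydroflavonol. Its level was -1.29, -0.14, -0.62 and -0.93 in wild type, -4.40, -4.79, -4.68 and -3.40 in MYB106SRDX and -0.26, -2.11, -0.50 and 0.47 in WIN1SRDX. MYB106SRDX was below both other groups on all arrays, whereas WIN1SRDX spanned the wild-type range on both sides. F3H fell by 3.57 ± 0.51 (SE) in MYB106SRDX (log2, adjusted p = 0.000212).

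F3'H, a cytochrome P450 that adds the second hydroxyl group of the B ring, gave -2.45, -2.64, -2.93 and -2.77 in wild type. MYB106SRDX arrays gave -2.84, -2.23, -4.08 and -3.70, and WIN1SRDX arrays -3.99, -2.57, -2.88 and -4.29. All 3 groups overlapped, and the lines had the wider spread. The F3'H difference from wild type was -0.52 (95% interval -1.52 to 0.48, adjusted p = 0.361) in MYB106SRDX and -0.74 (-1.74 to 0.26, adjusted p = 0.232) in WIN1SRDX.

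FLS1, flavonol synthase, leads from dihydroflavonols to flavonols. Its level was -2.86, -2.70, -1.88 and -2.05 in wild type, -3.38, -4.24, -5.48 and -5.50 in MYB106SRDX and -1.81, -0.06, -0.93 and -1.36 in WIN1SRDX. The 3 groups were separate, with MYB106SRDX lowest, wild type between and WIN1SRDX highest. The fall in MYB106SRDX was -2.27 ± 0.51 (SE, adjusted p = 0.00362), and its size differed by slide, at -3.44, -2.97 and -0.60. In WIN1SRDX the FLS1 difference of 1.33 ± 0.51 (SE) did not pass (adjusted p = 0.0679). It was 0.91, 1.83 and 0.97 within the slides.

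DFR, dihydroflavonol reductase, is the first enzyme of the anthocyanin branch. Its level was 0.18, 1.54, -0.61 and -1.0 in wild type, -5.25, -7.08, -4.62 and -5.65 in MYB106SRDX and -2.77, -1.36, -2.12 and -0.38 in WIN1SRDX. MYB106SRDX lay apart, below every other array, and WIN1SRDX overlapped wild type through replicate 4. DFR fell by 5.68 ± 0.69 (SE) in MYB106SRDX (log2, adjusted p = 7.89e-05).

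LDOX, leucoanthocyanidin dioxygenase, makes the coloured anthocyanidin. Wild type read -2.12, -0.98, -2.87 and -2.70 and WIN1SRDX -4.84, -3.25, -3.99 and -2.21. In MYB106SRDX LDOX was not well above background on any array, with signals of -6.97, -9.10, -7.53 and -7.88. Its fold is therefore a bound. It is the bright group's mean over the lowest above-background signal of any spot on each dim array, or the probe's own if higher. That lowest signal is not a limit of this probe, so the bound is nominal and belongs to the scale of levels used here. By this bound LDOX was at least 28.6-fold lower in MYB106SRDX than in wild type (adjusted p = 3.97e-05). An adjusted p given with a bound, here and below, is that of the fitted difference and does not test the bound.

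UGT79B1, which adds xylose to the anthocyanin's first sugar, read -2.46, -1.68, -3.27 and -3.30 in wild type and -5.51, -2.99, -4.86 and -3.46 in WIN1SRDX. It too was not well above background on any MYB106SRDX array, where its signals were -7.73, -9.25, -8.99 and -7.65. By its bound UGT79B1 was at least 20.1-fold lower there than in wild type (adjusted p = 3.35e-05).

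UGT75C1 adds a further glucose to anthocyanins. Its level was -1.54, -0.70, -2.60 and -2.49 in wild type, -4.64, -6.23, -4.67 and -3.51 in MYB106SRDX and -4.77, -3.08, -3.48 and -3.37 in WIN1SRDX. Both lines lay below every wild-type array and overlapped each other. UGT75C1 fell by 2.93 ± 0.61 (SE) in MYB106SRDX (log2, adjusted p = 0.00224), and within the slides the difference was -1.02, -2.84 and -3.52.

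5MAT, a malonyltransferase that acylates the added glucose, read -3.14, -2.05, -4.06 and -3.74 in wild type and -4.79, -3.34, -4.89 and -3.61 in WIN1SRDX. In MYB106SRDX it read -6.79, -9.29, -8.47 and -7.51, and only the first of these was well above background, so the size of the fall rests partly on signal near background. 5MAT was -4.77 ± 0.61 (SE) lower than in wild type (log2, adjusted p = 0.000106). With a normexp background correction the differences of the 3 dim late genes shrank, to -2.28 for LDOX, -1.96 for UGT79B1 and -1.51 for 5MAT, and those of CHS and DFR to -3.45 and -4.09, all 5 still passing. The normexp setting also adds an offset of 50 to every signal, which by itself shrinks the differences of dim probes. The processed signals of LDOX and UGT79B1 in MYB106SRDX were only 3.2 to 13.1 and 2.88 to 9.25. Their normexp sizes were smaller than their bounds, which carry no offset and so are on another scale. These sizes thus depend on the processing, and the part of the background correction apart from the offset was not tested.

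In WIN1SRDX seedlings 1 enzyme of the pathway differed from wild type at the threshold. UGT75C1 fell, by 1.84 ± 0.61 (SE) on the log2 scale (adjusted p = 0.0383), and the other 9 genes did not pass, so 1 of 10 was lower and 0 higher. Over all tested loci 32.6% were called, 15.2% lower and 17.4% higher. Groups did not overlap for UGT75C1, on the lower side, and FLS1, on the higher side, where 21% and 22% of all loci had no overlap. The comparison shares its wild-type arrays with the one above.

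The late genes had log2 differences of -1.69 ± 0.69 (SE, adjusted p = 0.0846) for DFR, -1.41 ± 0.63 (0.108) for LDOX, -1.53 ± 0.61 (0.0794) for UGT79B1 and -0.91 ± 0.61 (0.273) for 5MAT. Within slide 3 the late differences ran from -3.66 for UGT75C1 to -2.19 for 5MAT. Slides 1 and 2 gave medians of -0.51 and -0.38 for the late genes, against -3.44 in slide 3. Slide 3 held wild-type replicates 1 and 2 and WIN1SRDX replicate 1. Wild-type replicate 2 was the highest of its group for all 5 late genes, and WIN1SRDX replicate 1 the lowest of its group for 4 of 5.

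The UGT75C1 call did not survive the loss of 6 of the 12 arrays in turn. It was lost without wild-type replicate 1 (-1.75, adjusted p = 0.0924) or 2 (-1.46, 0.106), and without WIN1SRDX replicate 1 (-1.48, 0.099), 3 (-1.91, 0.065) or 4 (-1.95, 0.0553). Leaving out MYB106SRDX replicate 1, which enters only through the shared spread, gave -1.84 with an adjusted p of 0.0501. With the slide as a block UGT75C1 differed by -1.89 (adjusted p = 0.0589).

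None of the early genes passed in WIN1SRDX. CHS differed by -0.18 (95% interval -1.56 to 1.19, adjusted p = 0.842), CHI by 0.27 (-1.26 to 1.79, 0.793) and F3H by 0.14 (-0.98 to 1.26, 0.848). The intervals allow changes of more than 2-fold in either direction for CHS and CHI. FLS1, at 1.33 in the fit of all groups, passed with normexp (1.19, adjusted p = 0.0411), with the authors' values (1.45, 0.0438), with only the groups compared in the fit (1.33, 0.0286) and without MYB106SRDX replicate 1 (1.33, 0.0363).

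**Figure D2:**
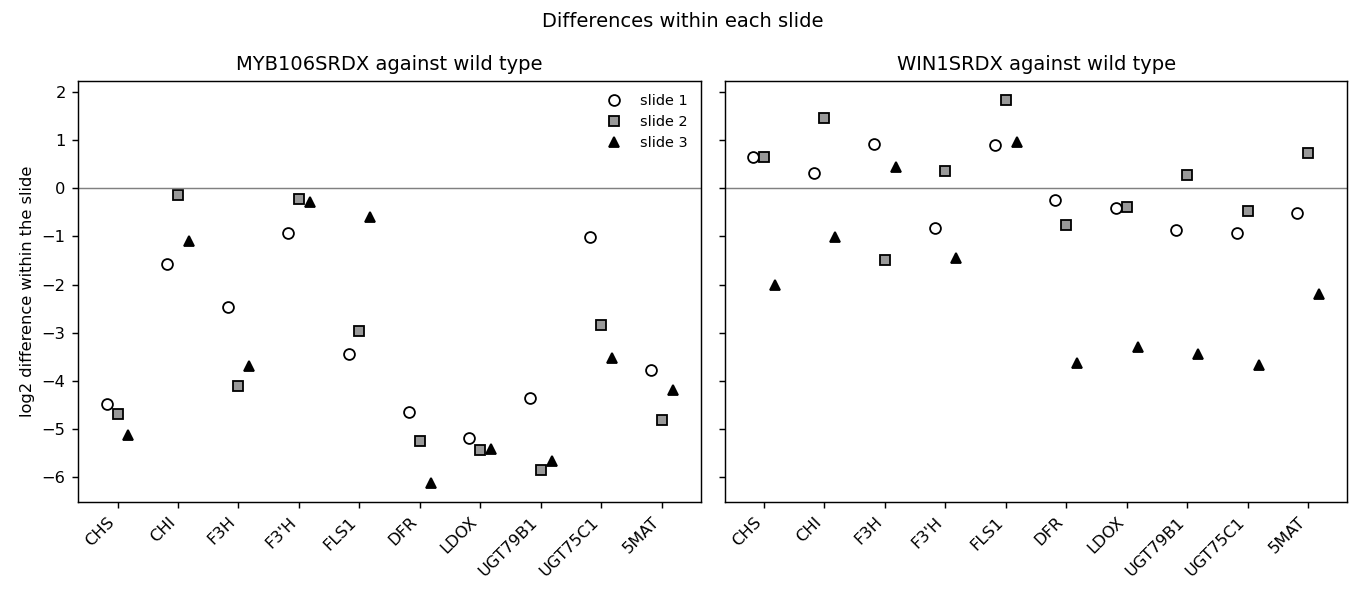
Log2 difference from wild type within each of the 3 slides (y axis) for each enzyme gene (x axis), MYB106SRDX on the left and WIN1SRDX on the right. The MYB106SRDX differences of all enzyme genes lie below 0 on each slide, those of CHI and F3'H, which did not pass the test, included. The WIN1SRDX differences of the late genes are lowest on slide 3, at -3.66 to -2.19.

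Between the lines, 7 of the 10 enzymes were lower in MYB106SRDX than in WIN1SRDX and 0 were higher, against 24.2% of all loci called lower, 18.3% called higher and 42.6% called in all. The same 7 had no overlap between the lines, on the lower side. Of all loci 19.7% had none on the lower side and 15% none on the higher side. Here too LDOX, UGT79B1 and 5MAT were tested through the groups where they are high. Among loci above background on all arrays 4 of 7 enzymes were lower, beside 3748 of 17796 loci lower and 3444 higher. CHS differed by -4.67, F3H by -3.72, FLS1 by -3.61, DFR by -3.99 and 5MAT by -3.86 (log2, adjusted p = 0.000233, 0.000264, 0.000334, 0.00111 and 0.000624). By their bounds LDOX was at least 10.8-fold lower (adjusted p = 0.000397) and UGT79B1 at least 6.98-fold lower (adjusted p = 4e-04) in MYB106SRDX. With normexp the UGT79B1 difference was -0.96 (adjusted p = 0.0747) and that of 5MAT -0.89 (adjusted p = 0.0733), so both calls were lost. That of LDOX was -1.23 (adjusted p = 0.0399). For LDOX and UGT79B1 the normexp size was smaller than the bound, which carries no offset. The normexp offset of 50 shrinks these differences too, and its part in the lost calls was not tested. The lines did not differ at the threshold for UGT75C1 (-1.09, 95% interval -2.42 to 0.25, adjusted p = 0.173), CHI (-1.07, -2.60 to 0.46, adjusted p = 0.237) and F3'H (0.22, -0.78 to 1.22, adjusted p = 0.717). Without MYB106SRDX replicate 2 CHI passed here too (-1.77, adjusted p = 0.019).

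**Figure D3:**
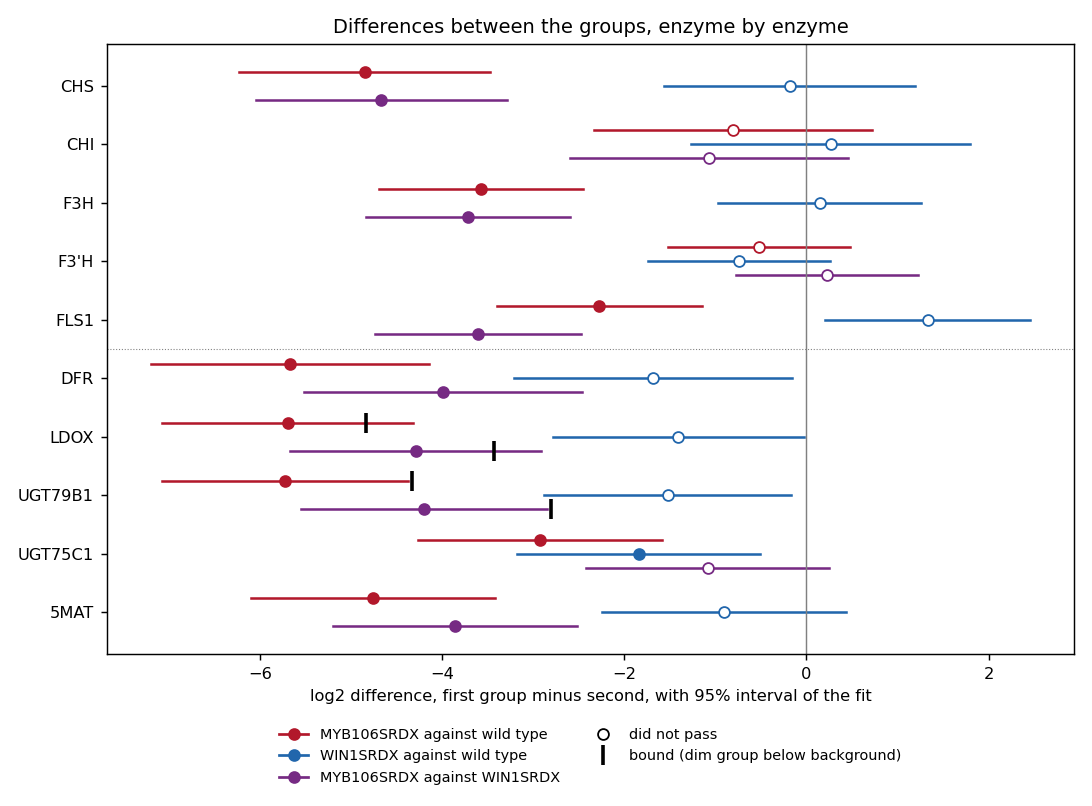
Log2 difference between groups (x axis) with the 95% interval of the fit for each enzyme gene (y axis), in red and blue for the lines against wild type and in purple between the lines. Open points did not pass, and black ticks mark the bound where LDOX and UGT79B1 were below background. Red and purple points lie left of -2 for 8 and 7 genes, while 1 blue point, UGT75C1, passed.

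The enzymes also varied among arrays of a group. Their median SD was 0.632 in wild type, 1.04 in MYB106SRDX and 1.03 in WIN1SRDX, against 0.142, 0.306 and 0.28 for all tested loci. After each group's mean was taken out, the late genes moved together over the 12 arrays, with Pearson's r from 0.718 to 0.942 over their 10 pairs (median 0.802, Spearman 0.797). CHS went with them, at 0.485 to 0.828. These values share arrays and scaling, and in MYB106SRDX they include signals below background for LDOX, UGT79B1 and 5MAT.

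CHI and F3'H varied together (r = 0.915, rho = 0.902) and not with the late genes, with r from -0.381 to 0.109. FLS1 had r of 0.563 and 0.683 with them, and -0.202 to 0.2 with the late genes. F3H did neither, with a median r of 0.218 to the late genes and values of -0.52 to CHI and -0.64 to F3'H. In MYB106SRDX replicate 2, CHI and F3'H were at their highest of the line, and DFR and UGT75C1, the late genes above background on all arrays of that line, at their lowest.

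**Figure D4:**
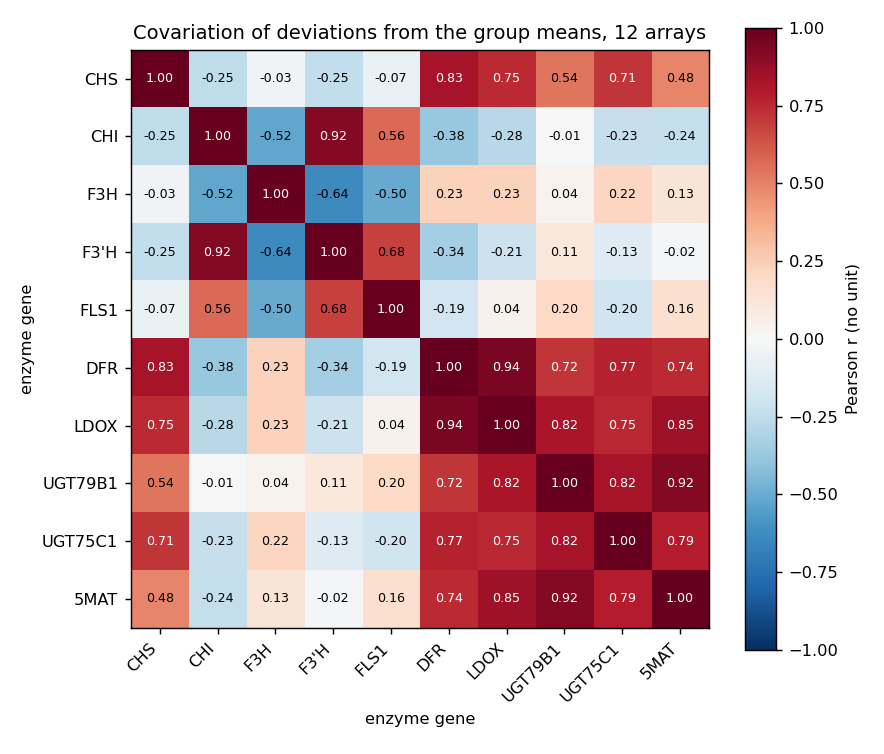
Pearson's r (colour and number, no unit) between the enzyme genes, over their deviations from the group mean on 12 arrays. CHS and the late genes form a block of r at or above 0.48, and CHI and F3'H a pair at 0.92.

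Summed epidermal marker signal moved with the second of these patterns, which was seen after the values were known. In MYB106SRDX the sum was 6.86, 22.3, 2.36 and 2.87 on replicates 1 to 4, and in WIN1SRDX 1.91, 14.8, 8.00 and 2.97. CHI had the same order of arrays as the sum in both lines, F3'H in MYB106SRDX and FLS1 in WIN1SRDX. The order differed for F3'H in WIN1SRDX, for FLS1 in MYB106SRDX and for all 3 genes in wild type, where the sum varied little. Over the deviations of the log2 sum on 12 arrays, r was 0.965 for CHI (rho = 0.909), 0.942 for F3'H (0.93) and 0.734 for FLS1 (0.776). For CHS and the late genes it lay between -0.307 and 0.118, and F3H had -0.622. The sum is not carried by LTP1 alone, which made 7.06% to 39.3% of it. Marker by marker, r with CHI ran from 0.545 to 0.961, with a median of 0.858 over the 6. With F3'H it ran from 0.442 to 0.927 (median 0.87) and with FLS1 from 0.333 to 0.883 (median 0.72). How many other loci reach such r is not given. With the log2 sum of the root markers r was -0.656 to -0.263 for 9 of the enzymes, CHI and F3'H included, and 0.487 for F3H. What sets these relations was not tested.

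The other genes around these enzymes were taken from lists of the pathway, which were also chosen with earlier results of these data known. Of 9 early phenylpropanoid genes, which feed both flavonoids and lignin, 2 were lower and 1 higher in MYB106SRDX, and 0 lower and 4 higher in WIN1SRDX. Over all tested loci 28.6% were lower and 23.6% higher in MYB106SRDX, and 15.2% and 17.4% in WIN1SRDX. The early phenylpropanoid counts in MYB106SRDX lay at or below them. The median log2 difference was 0.33 and 0.95. 4CL1, a coumarate ligase, rose by 1.83 in MYB106SRDX and 1.92 in WIN1SRDX (adjusted p = 4.54e-06 and 1.83e-05). 4CL3, the ligase linked to flavonoid synthesis, fell by 2.91 in MYB106SRDX (adjusted p = 0.000814, above background on 3 of 4 arrays there) and differed by -0.90 in WIN1SRDX (adjusted p = 0.195). PAL4, a phenylalanine ammonia lyase, fell by 1.12 in MYB106SRDX (adjusted p = 0.014). 4CL2 and PAL1 rose in WIN1SRDX by 2.26 and 0.98 (adjusted p = 0.00252 and 0.0354).

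Of 12 tested helper, transport and decorating genes of flavonoids, 7 were lower and 2 higher in MYB106SRDX (median -1.28, -0.92 with bounds), and 0 lower and 4 higher in WIN1SRDX (median 0.52). The shares of all loci were 28.6% and 23.6% in MYB106SRDX and 15.2% and 17.4% in WIN1SRDX. CHIL, a non-catalytic relative of CHI that aids CHS, fell by 3.25 ± 0.37 (SE) in MYB106SRDX (adjusted p = 4.57e-05) and rose by 1.43 ± 0.37 (SE) in WIN1SRDX (adjusted p = 0.0126). The difference of CHIL between the lines was -4.68 (adjusted p = 6.96e-06). TT19, the glutathione transferase that carries anthocyanins to the vacuole, fell by 5.70 ± 0.73 (SE) in MYB106SRDX (adjusted p = 0.00011, above background on 3 of 4 arrays) and differed by -1.89 in WIN1SRDX (adjusted p = 0.0697). UGT89C1, a flavonol rhamnosyltransferase, changed by -0.64 and 1.07 in MYB106SRDX and WIN1SRDX (adjusted p = 0.00637 and 0.000833). SCPL10, an acyltransferase-like gene that was put in the list for anthocyanin acylation, changed by -1.61 and 1.33 (adjusted p = 0.000478 and 0.00332). BGLU10, an anthocyanin glucosyltransferase, rose in both, by 1.91 and 1.15 (adjusted p = 5.72e-05 and 0.00314). Only AHA10 of the 6 seed coat genes was tested, with differences of -0.26 and -0.63 that did not pass.

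Among 16 tested flavonoid regulators 10 were lower and 1 higher in MYB106SRDX (median -1.16), and 2 lower and 4 higher in WIN1SRDX (median -0.03). Against 28.6% and 23.6% of all loci in MYB106SRDX and 15.2% and 17.4% in WIN1SRDX, the WIN1SRDX counts lay near the background. MYB12, an activator of the early flavonol genes, was not well above background on any MYB106SRDX array. By its bound it was at least 6.99-fold lower there than in wild type (adjusted p = 1.06e-06). In WIN1SRDX MYB12 rose by 0.99 ± 0.25 (SE, adjusted p = 0.0118). TT8, the bHLH partner of the late gene complex, was above background on 4 wild-type arrays and on 1 and 2 arrays of MYB106SRDX and WIN1SRDX, and so was tested through wild type, where it is high. Its fitted differences of -3.37 and -2.23 (adjusted p = 0.000477 and 0.01) rest largely on signal near background, and their size is uncertain. Other regulators of the list, named after their values were seen, did not all fall in MYB106SRDX. PAP1, GL3 and TTG1 differed there by 0.87, 0.01 and -0.19 and did not pass (adjusted p = 0.417, 0.983 and 0.264). EGL3 was lower, at -1.88 (adjusted p = 0.016, above background on 2 of 4 arrays). MYBL2, a repressor of anthocyanin synthesis, fell too, by 2.65 in MYB106SRDX (adjusted p = 0.000206), and differed by -0.92 in WIN1SRDX (adjusted p = 0.0816). HY5, the light signalling factor, rose by 0.70 and 0.96 (adjusted p = 0.00882 and 0.00311). MYB111, another flavonol activator and named after its values were seen, was lower in both lines, at -2.70 in MYB106SRDX and -3.18 in WIN1SRDX (adjusted p = 0.0291 and 0.0223). It was above background on 4 wild-type arrays but on 1 and 2 arrays of the lines, so these sizes too rest partly on signal near background. MYB113, another regulator of the list named after its values were seen, was above background on 4 WIN1SRDX arrays and 0 wild-type arrays. It was thus tested through WIN1SRDX, where it was by its bound at least 11.2-fold higher than in wild type (adjusted p = 0.0269). In MYB106SRDX, where it was above background on 1 array, it differed by 0.38 (adjusted p = 0.811). That value compares signals mostly near background in both groups.

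**Figure D5:**
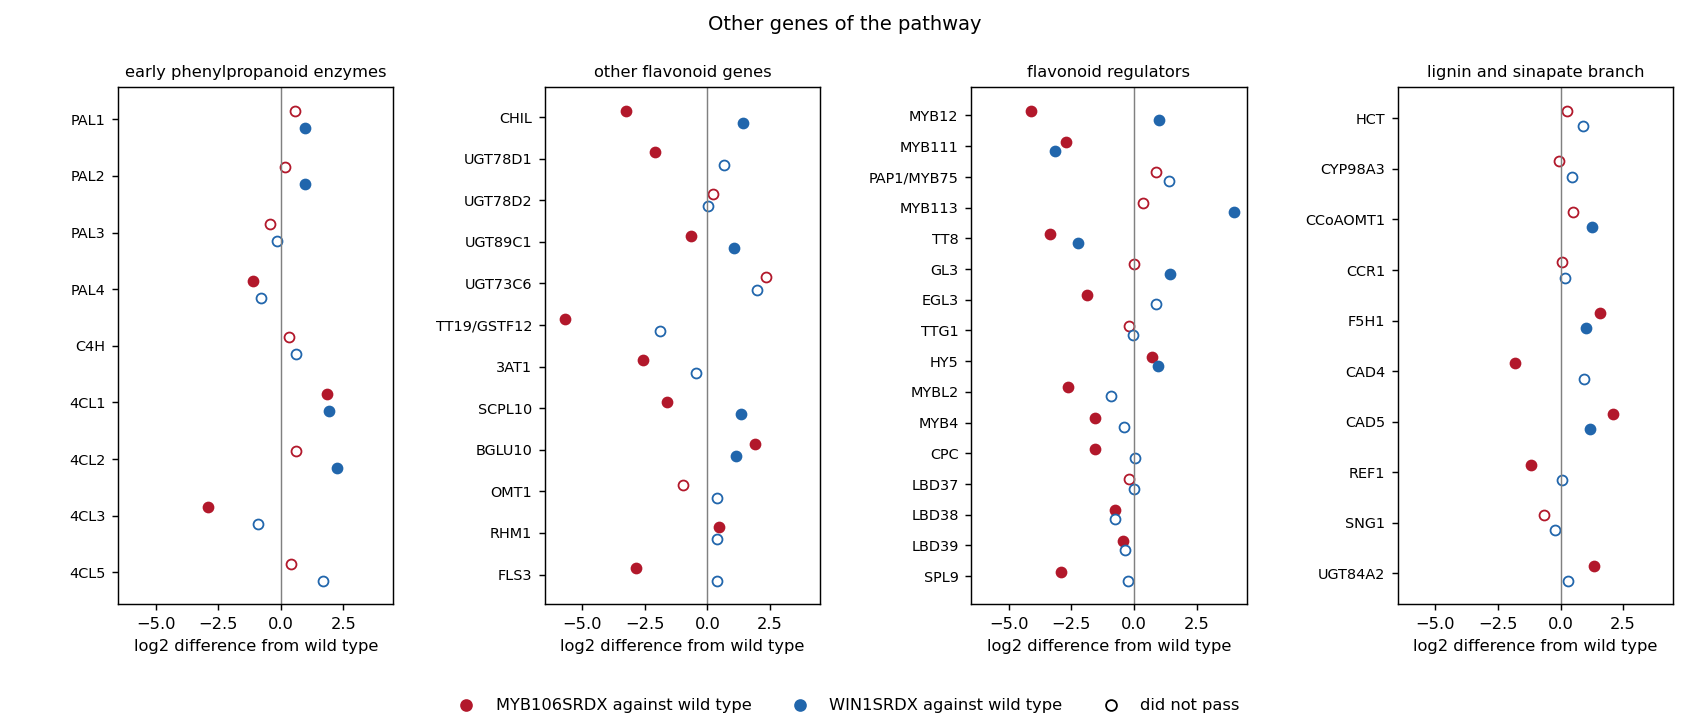
Log2 difference from wild type (x axis) of the tested genes of 4 lists around the enzymes, red for MYB106SRDX and blue for WIN1SRDX, with open points where the test was not passed. The fitted values of MYB12 and 3AT1 in MYB106SRDX and of MYB113 in each line rest on a group below background. CHIL, UGT89C1, SCPL10 and MYB12 lie left of 0 in red and right of 0 in blue.

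Of 10 lignin and sinapate genes, a neighbouring branch, 2 were lower and 3 higher in MYB106SRDX (median 0.17), and 0 lower and 3 higher in WIN1SRDX (median 0.67). In MYB106SRDX this is near the 28.6% and 23.6% of all loci, and in WIN1SRDX all loci gave 15.2% and 17.4%. CAD5, an alcohol dehydrogenase of lignin, rose by 2.09 and 1.20 in MYB106SRDX and WIN1SRDX (adjusted p = 1.21e-05 and 0.00113). F5H1, the hydroxylase of syringyl units, rose by 1.59 and 1.02 (adjusted p = 6.57e-05 and 0.00243). REF1, an aldehyde dehydrogenase of sinapate synthesis, fell by 1.20 in MYB106SRDX (adjusted p = 0.000472), and CCoAOMT1, a methyltransferase, rose by 1.26 in WIN1SRDX (adjusted p = 0.000934).

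The mean of the z-scored profiles of the 10 enzymes was set against all other tested loci over the 12 arrays. The most alike were GLR3.6 (r = 0.992), AT1G29520 (0.982), AT1G22030 (0.98), HB28 (0.978) and AT3G16070 (0.978). None of these is in the lists above. GLR3.6, a glutamate receptor-like gene, differed from wild type by -1.37 in MYB106SRDX and -0.23 in WIN1SRDX. HB28, a zinc finger homeodomain gene, differed by -5.87 and -1.01. The r values are over arrays of 3 groups and mostly follow the step between MYB106SRDX and the others.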

How the data were processed

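The 12 deposited scanner files hold spot intensity from Agilent Feature Extraction 9.1.3.1, already background-corrected (the processed signal), per the file headers. The authors' value table is a ratio: per the deposited values, each processed intensity divided by 1082.6 for MYB106SRDX, 995.65 for WIN1SRDX and 1264 for wild type (99.99 to 100% of probes within 1%). It is linear and not centred, with no dye direction in 1-colour arrays. No source used here says why each group has its own constant. Its column medians were 0.0698, 0.0598, 0.0652 and 0.0758 (MYB106SRDX), 0.0977, 0.0867, 0.137 and 0.11 (WIN1SRDX) and 0.0996, 0.0966, 0.0993 and 0.109 (wild type).

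The log2 processed signal minus the 75th percentile of each array's 37685 non-control spots was used, without outlier spots, and the brightest probe of each locus. All 3 groups were fitted together with limma 3.58.1 in R 4.3.3 (lmFit, eBayes), with Benjamini-Hochberg adjustment over 20267 loci. The fit was tested on simulated data. Passed means an adjusted p under 0.05. The alternatives were quantile scaling, normexp (offset 50), the authors' table, other probe and spot filters, a floor, blocks, fewer groups and arrays left out. Normexp used the median signal, the column present in the files. Members and lists were chosen with earlier results of these data known. Genes named are all members, the 3 lowest p of each list in each line, and the 5 loci most alike. Named besides are MYB106 and WIN1, some markers, and MYB111, MYB113, PAP1, GL3, TTG1 and EGL3 after their values were seen. Of 83 list and marker loci on the array, 79 had their name in RefSeq (TAIR10.1, names only). The number of arrays limits the precision.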

Additional observations from a re-analysis of the deposited data

Results flagged for a closer look

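Of 30 sets of 4 arrays, 1 enzyme in 1 group, 1 had an array far from the other 3. CHS read -2.04 in WIN1SRDX replicate 1, against -0.15 to 0.17 on the other arrays of that line, a gap of 0.854 of the whole range, above Dixon's 95% critical value. Chance flags about 1 in 20 such sets. The same array was the lowest of its line for 4 of the 5 late enzymes.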

How the results depend on the processing

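Of the 10 enzymes, the count lower in MYB106SRDX than in wild type (8) ranged from 8 to 9 with 1 array left out, and that against WIN1SRDX (7) from 7 to 8. Both changed by over 1.5 times where only loci above background on all 12 arrays were tested, to 5 and 4, since 3 enzymes then dropped out. The WIN1SRDX count against wild type (1), taken here over both directions, was less firm. It was 3 with normexp (2 lower and 1, FLS1, higher) and 2 with a floor at the background limit (2 lower). With only the groups compared it was 2, the higher FLS1 among them. On the authors' scale it stayed 1, but this was FLS1, which was higher. The count was 0 with the slide as a block and 0 to 2 with 1 array left out. With the replicate number as a block it was 0 (UGT75C1 at -1.84, adjusted p = 0.0819). Same-numbered arrays correlated at -0.164 to 0.195 after group means were removed, 1 of 12 above 0.1. Pairs of other numbers gave -0.187 to 0.179, 4 of 36 above 0.1. Same-slide pairs, which do share a slide, gave -0.187 to 0.125, so these values cannot tell whether same-numbered arrays share more than a number. UGT75C1 also missed the threshold on the authors' scale (-1.72, adjusted p = 0.052). In WIN1SRDX against wild type DFR passed with normexp (-1.55, adjusted p = 0.0475) and without WIN1SRDX replicate 4 (-2.11, 0.0445), LDOX without that array (-1.86, 0.0408), and UGT79B1 without replicate 2 (-1.93, 0.0365) and with the floor (0.0453). No called difference of an enzyme changed sign under any alternative. The authors' scale moved the median of all loci by 0.12 for WIN1SRDX against wild type and by -0.16 between the lines, and the share of rises among calls from 53.4% to 66.5% and from 43.1% to 25.6%. Signals near background limit the sizes for LDOX, UGT79B1 and 5MAT in MYB106SRDX. The cause of these shifts was not tested.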
